A study of Mus musculus with 2 samples.

Results

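The RNA levels of constitutive proteasome genes in RAW264.7, a macrophage line from mouse able to form osteoclasts, were compared between cells given a scramble siRNA, the control, and cells given an siRNA of 1 sequence against *Flcn*. *Flcn* encodes folliculin, a tumor suppressor that keeps the transcription factor Tfe3 out of the nucleus. Both cultures received fresh MEMα with 10% FCS 24 hours after transfection and were kept for another 48 hours, and neither label names RANKL. Each condition was measured on 1 Affymetrix Mouse Genome 430 2.0 array, so no value has a replicate error, no test was possible, and precision is limited by the small number of arrays. These are bulk cultures, in which a shift in the kinds of cells and a shift in RNA per cell cannot be told apart. The members were chosen by symbol alone, as the genes whose name in the platform annotation starts with *Psma*, *Psmb*, *Psmc*, *Psmd*, *Psme3*, *Psme4*, *Psmf* or *Psmg*, without the immunoproteasome genes *Psmb8*, *Psmb9* and *Psmb10*. This gave 45 genes with 98 probe sets among 18193 named genes on the array, and 44 of the 45 had a signal above the filter described next. The rule also takes in *Psmc3ip* and *Psme3ip1*, which are named for binding a subunit and are not part of the proteasome.

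The proteasome degrades proteins that carry ubiquitin chains. Its 20S core is a barrel of stacked rings, with outer rings of alpha subunits that gate the entry and inner rings of beta subunits, of which *Psmb5*, *Psmb6* and *Psmb7* encode the ones that cut peptide bonds. The 19S cap binds ubiquitin chains and removes them, and its ring of ATPases unfolds the substrate and threads it into the core. Dedicated chaperones build the rings and then leave, and other caps or inhibitors can bind the core in place of 19S. Subunits of the complex are made in step, and the transcription factor Nfe2l1 (Nrf1) is known to raise their genes together when the proteasome is impaired.

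Signals are the linear intensities that the authors deposited, and the value of a gene is that of its strongest probe set. A floor was set at the median of each array, which was 12.8 for the scramble siRNA array and 13.6 for the *Flcn* siRNA array, and a gene passed the filter when at least 1 of its signals lay above this floor. Genes whose geometric mean over both arrays reached 195, the 75th percentile, are called strongly detected, and probe sets at that level are called strong. The log2 ratio is that of *Flcn* siRNA over scramble siRNA, and a gene was called by size alone, at 1.5-fold or more. *Flcn* itself had signals of 241 with scramble siRNA and 206 with *Flcn* siRNA (log2 ratio -0.22) at the probe set used and of 209 and 145 (log2 ratio -0.52) at another. The Tfe3 target *Gpnmb* had signals of 294 and 2500. The 9 macrophage markers with a probe set, among them *Csf1r* and *Lyz2*, passed the filter, whereas of 15 markers of T cells, B cells, fibroblasts and epithelium with a probe set none had a signal over 18.5 on either array.

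Of the 44 genes above the filter, 36 had a higher signal on the *Flcn* siRNA array and 8 had a lower one. Without *Psmc3ip* and *Psme3ip1* it was 35 of 42. The differences were small. The median log2 ratio was 0.12, which is 1.09-fold, and the middle 50% of the genes lay between 0.03 and 0.23. Over all 11046 genes above the filter the median log2 ratio was 0.02 and 52.6% lay above 0. The 41 strongly detected proteasome genes had a median of 0.12 with 82.9% above 0, beside a median of 0.01 with 50.7% above 0 over all 4549 strongly detected genes. When signals were divided by the array's median instead (median scaling), 26 of the 44 genes lay above 0 and their median was 0.04, while the median of all genes shifted by -0.087 to -0.07. With quantile normalization 38 of the 44 lay above 0.

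Among the 44 genes 1 was called higher and none was called lower at 1.5-fold. Over all genes above the filter 5.97% were called higher and 5.35% lower, and over strongly detected genes 2.31% and 3.63%. At a smaller size, a log2 ratio of at least 0.32, 6 of the 44 genes (13.6%) were higher, which are *Psmc3ip*, *Psme3*, *Psmd3*, *Psmb2*, *Psmd2* and *Psmd9*, beside a background of 17.2%. Of the strongly detected ones 5 of 41 (12.2%) were higher by this size beside 10.3% of all strongly detected genes. The share past this size in the upward direction was thus close to the background. In the downward direction 1 gene (2.27%), *Psme4*, was past this size, beside 15% of all genes above the filter and 12.2% of strongly detected ones. As deposited, the proteasome genes thus lay in a narrow band a little above 0, with few genes to the left of it. Under median scaling 26 of the 44 lay above 0. No background matched to the signal levels of the members was drawn.

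**Figure D1:**
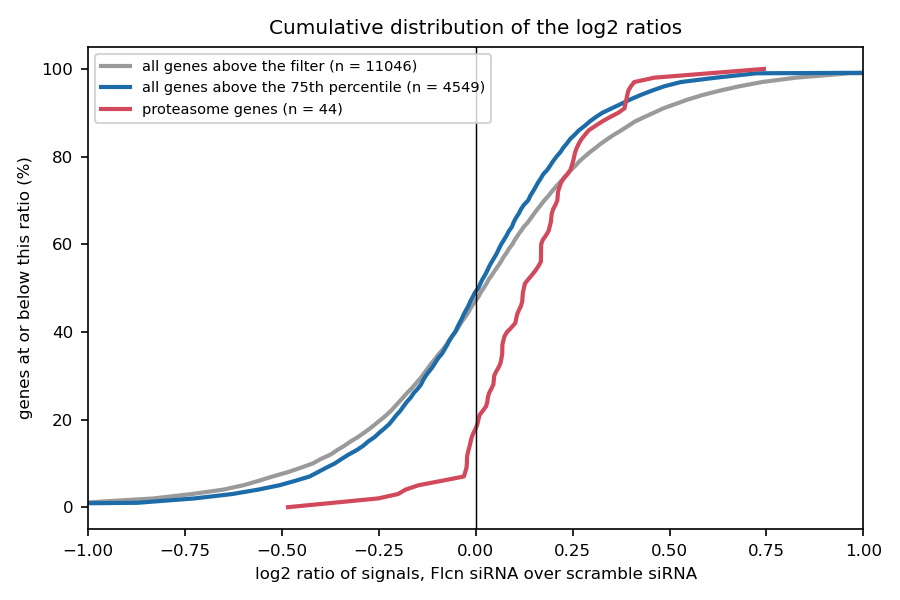
Share of genes in percent (vertical axis) at or below a given log2 ratio of signals, *Flcn* siRNA over scramble siRNA (horizontal axis, drawn from -1 to 1), for the 44 proteasome genes (red), all 11046 genes above the filter (grey) and the 4549 strongly detected genes (blue). The red curve stays low until 0 and then climbs steeply, with its middle at 0.12.

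The 20S alpha subunits, which form the gated outer rings, had a median log2 ratio of 0.11 over 8 genes, with 7 above 0. *Psma5* had a signal of 2041 with scramble siRNA and 2431 with *Flcn* siRNA (log2 ratio 0.25), and its other strong probe set gave 0.13. *Psma7* had 1177 and 1393 (0.24), with 0.17 at its other probe set. Both genes were thus higher at each probe set with a strong signal. *Psma8*, the relative of *Psma7* used in the testis, had signals of 177 and 205 (0.21). Its 1 probe set was above the floor on both arrays of these macrophage cells, and whether it also picks up *Psma7* RNA was not tested. *Psma1*, *Psma4* and *Psma2* had log2 ratios between 0.08 and 0.12, and *Psma3* had 1830 and 1919 (0.07). *Psma6* had 1780 and 1743 (-0.03) at the probe set used but 1437 and 1672 (0.22) at another strong one. Under median scaling *Psma2* and *Psma3* also lay below 0, and with quantile normalization all 8 lay above it.

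The 20S beta subunits spread more widely, with a median of 0.07 over 7 genes above the filter and 6 of them above 0. *Psmb2*, a beta subunit without a catalytic site, had signals of 682 and 893 (log2 ratio 0.39), the highest of the core subunits. The genes of the 3 catalytic subunits were all higher with *Flcn* siRNA but unequally so. *Psmb7*, which carries the trypsin-like site, had 1370 and 1677 (0.29). *Psmb5*, with the chymotrypsin-like site, had 1205 and 1355 (0.17). *Psmb6*, with the caspase-like site, had 1112 and 1149 (0.05), and under median scaling it lay at -0.04. The order of these 3 rests on 1 probe set each and has no error. *Psmb1* went the other way, with 1437 and 1239 (-0.21), and was the only 20S subunit below 0 at each of its probe sets above the filter. Apart from the strong one, these had signals near or under the floor, 23.7 and 23.1 (-0.04) and 15.5 and 9.1 (-0.19). *Psmb3* had a log2 ratio of 0.07, and *Psmb4*, which like it has no catalytic site, had signals of 2841 and 2969 (0.06), with -0.14 at its other strong probe set. The median of the group was -0.02 under median scaling, when 3 of 7 lay above 0. *Psmb11*, the beta subunit of thymic epithelium, had 8.1 and 1.3, under the floor on both arrays, so that no ratio is given.

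**Figure D2:**
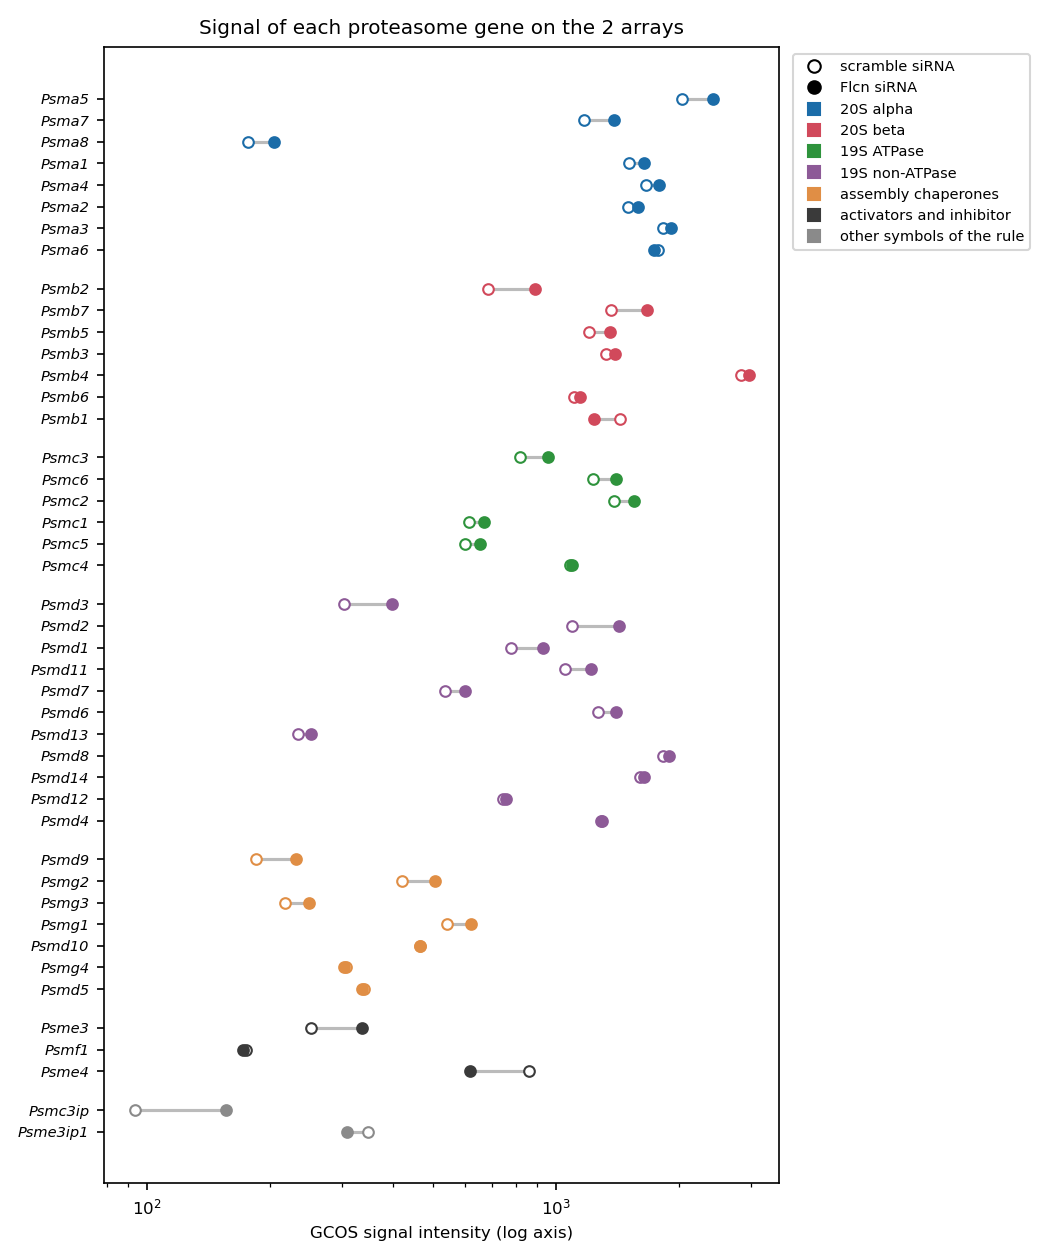
GCOS signal intensity on a log axis for each of the 44 proteasome genes above the filter, with scramble siRNA (open) and *Flcn* siRNA (filled), 1 array each, colored by role. In most rows the filled point lies a short way to the right of the open one; *Psme4*, *Psmb1* and *Psme3ip1* show the opposite order most clearly, and rows are not comparable with each other in level.

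The ATPases of the 19S base, which unfold substrates, had the narrowest range of the 5 larger groups. All 6 lay above 0 at the probe set used, with a median log2 ratio of 0.15 and a range of 0.01 to 0.22. *Psmc3* was the highest, with signals of 820 and 956 (0.22), followed by *Psmc6* with 1232 and 1403 (0.19) and *Psmc2* with 1388 and 1560 (0.17). *Psmc1* lay at 0.13, next to *Psmc5* with 600 and 652 (0.12). The lowest was *Psmc4*, with 1088 and 1095 (0.01), whose other strong probe set gave 0.13. The *Psmc6* value rests on its strongest probe set. Weaker ones gave -0.08, with signals of 164 and 155, and -0.57, with signals of 39.0 and 26.2. With the mean of all probe sets the log2 ratio of *Psmc6* was -0.16. Under median scaling *Psmc4* lay at -0.08 and the other 5 above 0.

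Among the 11 non-ATPase subunits of 19S, 10 lay above 0 and the median was 0.15. The 3 highest ratios were those of *Psmd3*, *Psmd2* and *Psmd1*. *Psmd3*, a scaffold of the lid, had signals of 303 and 399 (log2 ratio 0.39), which is 1.31-fold. *Psmd2* and *Psmd1*, the large subunits of the base to which ubiquitin receptors and the lid are attached, had 1095 and 1428 (0.38) and 779 and 931 (0.26). These 3 genes have 1 strong probe set each. A weak probe set of *Psmd2*, with signals of 15.8 and 8.7, near or under the floor, gave -0.22. With the mean of all probe sets the log2 ratio of *Psmd2* was 0.08. The ubiquitin receptor *Psmd4* had 1298 and 1290 (-0.01), with 0.11 at its other strong probe set. *Psmd14*, the enzyme that cuts ubiquitin chains off the substrate, had 1610 and 1646 (0.03), and *Psmd12*, another lid scaffold, had 742 and 757 (0.03). *Psmd8* also lay close to 0, with 1836 and 1895 (0.05), and these 3 genes lay below 0 under median scaling. *Psmd11*, *Psmd7*, *Psmd6* and *Psmd13*, all of the lid, filled the range between 0.11 and 0.21. Strong probe sets disagreed in sign for *Psmd11* (-0.16 to 0.26) and for *Psmd6* (-0.05 and 0.15).

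**Figure D3:**
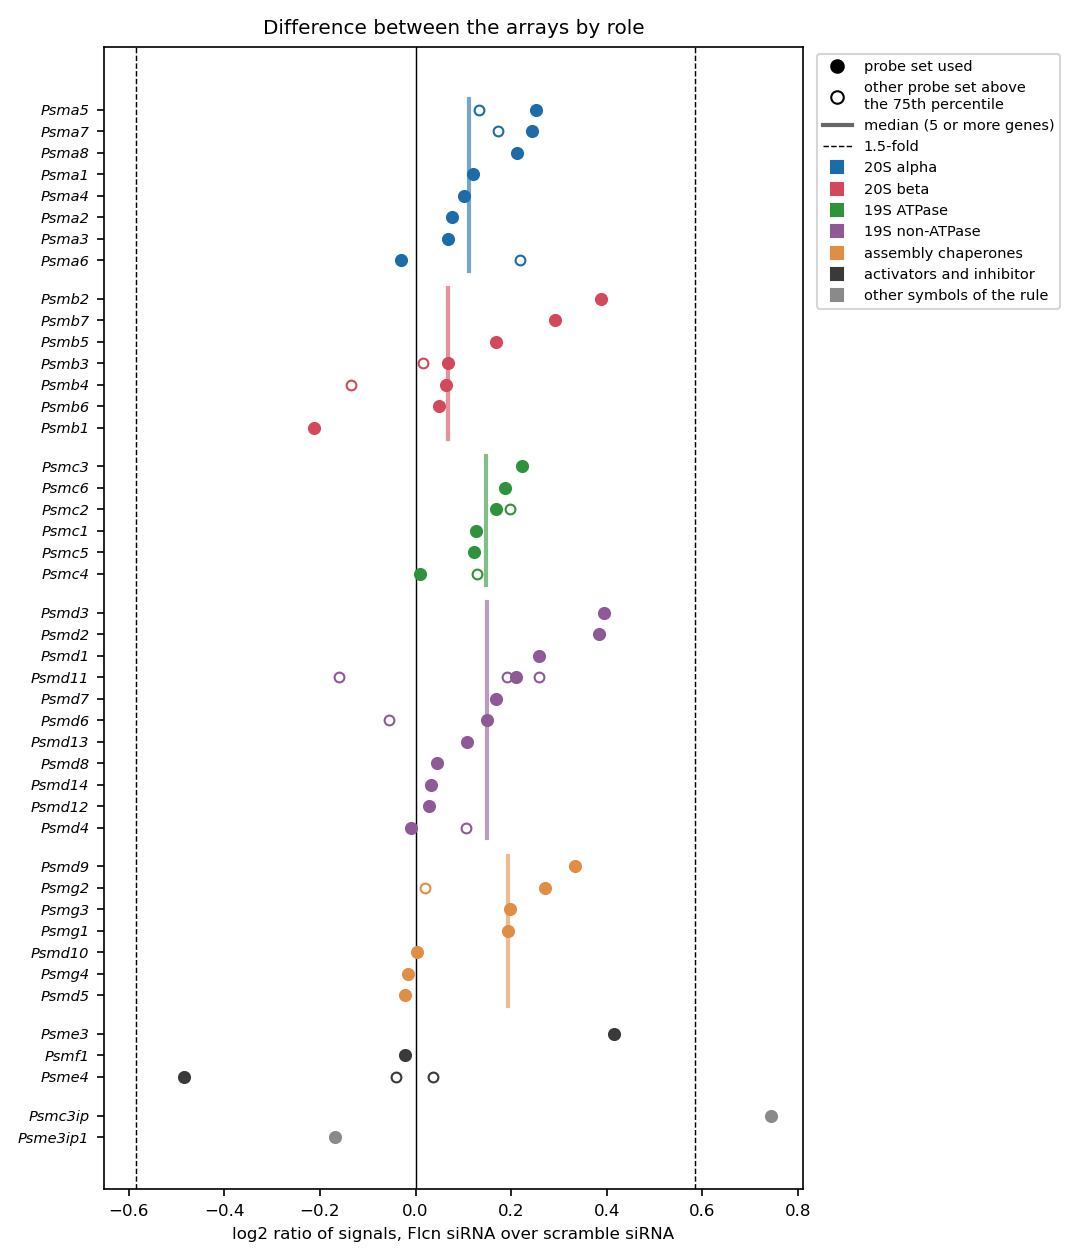
Log2 ratio (*Flcn* siRNA over scramble siRNA) of each of the 44 proteasome genes above the filter, grouped by role. Filled points are the probe sets used, open points the gene's other strongly detected probe sets, vertical bars the group medians and dashed lines 1.5-fold; the medians of the 5 larger groups lie between 0.07 and 0.19, and the groups overlap throughout.

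Assembly chaperones had the highest group median, 0.19 over 7 genes with 5 above 0, but they fell into 2 sets of values. *Psmd9*, a chaperone of the 19S base, had signals of 184 and 232 (log2 ratio 0.33) at its 1 strong probe set. Its 2 weak probe sets above the filter, with signals of 20.5 or less, gave -0.12 and -0.38, and with the mean of all probe sets its log2 ratio was -0.06. *Psmg2* and *Psmg1*, which together start the alpha ring, had 421 and 508 (0.27) and 543 and 621 (0.19). *Psmg3*, which acts in a pair with *Psmg4* on the same ring, had 218 and 250 (0.20), while *Psmg4* itself had 307 and 304 (-0.02). *Psmd10* and *Psmd5*, the other base chaperones of the rule, had 465 and 466 (0.00) and 341 and 335 (-0.02). Partners in a chaperone pair thus had like ratios in the case of *Psmg1* and *Psmg2* and unlike ones for *Psmg3* and *Psmg4*, with no error to judge either. The second strong probe set of *Psmg2* gave 0.02. With the mean of all probe sets in place of the strongest the group median was 0.00.

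The alternative activators and the inhibitor did not move together. *Psme3*, the nuclear cap PA28γ that works without ubiquitin, had signals of 251 and 335 (log2 ratio 0.41), or 1.33-fold, the highest of all subunits and regulators, and a weaker probe set gave 0.30. *Psme4*, the large activator PA200, was the lowest, with 862 and 617 (-0.48) at the probe set used. Its other strong probe sets gave 446 and 458 (0.04) and 227 and 221 (-0.04), so the value of -0.48 rests on 1 of its 3 strong probe sets. *Psmf1*, the inhibitor PI31, had 175 and 172 (-0.02), and its weaker probe sets lay on both sides of 0. Of the 2 genes that are not part of the proteasome, *Psmc3ip*, a factor of meiotic recombination, had 93.3 and 156 (0.74) and 71.8 and 115 (0.67) at its probe sets, and was the gene called higher at 1.5-fold. *Psme3ip1* had 347 and 309 (-0.17).

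Between roles the log2 ratios overlapped. The medians ran from 0.07 for 20S beta through 0.11 for 20S alpha, 0.15 for 19S ATPases and 0.15 for 19S non-ATPases to 0.19 for chaperones, while the range within each of the 20S beta, 19S non-ATPase and chaperone groups was over 0.3. The differences between the group medians were thus smaller than the spread within groups, and no order of the roles can be read from them. Probe sets of 1 gene gave a technical spread, which is no replicate error. Over the 12 members with at least 2 strong probe sets, the SD of the log2 ratio between them had a median of 0.11, about the size of the members' median, beside 0.09 over 1361 genes. In 6 of these 12 the strong probe sets lay above 0 and in the other 6 they lay on both sides of it. Counting every probe set of the members above the filter, 58 of 86 lay above 0, and of the strong ones 45 of 56. The weaker ones thus lay above 0 less often, and the share over all probe sets of the array is not given here.

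Of the genes known to control proteasome genes, *Nfe2l1* was past the threshold, in the opposite direction to most subunits. It had signals of 660 with scramble siRNA and 400 with *Flcn* siRNA (log2 ratio -0.72) at its 1 probe set, and a log2 ratio of -0.81 under median scaling. *Ngly1*, the enzyme that removes sugars from the Nfe2l1 protein on its way to activity, had 231 and 190 (-0.28), and *Mafk*, a DNA-binding partner, had 171 and 131 (-0.39). *Nfe2l2* (Nrf2), the relative that drives antioxidant genes, had 959 and 966 (0.01). *Akirin2*, which brings proteasomes into the nucleus, had 728 and 806 (0.15). Of the 11 genes of this list above the filter 5 lay above 0, with a median of -0.02, and the list's highest ratio, that of *Maff* (0.30), came from signals of 20 and 24.6. The array measures RNA, and Nfe2l1 is known to be controlled largely as a protein, which was not measured here.

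RefSeq promoters of GRCm38.p6, each from 250 bases before to 50 bases after a gene's start, were listed for 37 of the 45 members, with 40 promoters in all. They were searched on both strands for TGACNNNGC, the core of the antioxidant response element that Nfe2l1 and Nfe2l2 bind, for CCAAT, the box bound by NF-Y, and for CACGTG, an E-box that Tfe3 and its relatives can bind. TGACNNNGC was in 6 of the 40 promoters (15.0%) and in 12.4% of all 32851 promoters. CCAAT was in 15 of them (37.5%) and in 37.4% of all, and CACGTG in 4 (10.0%) and in 7.15%. The shares in the members were thus near those of all promoters, and a match is a description of the letters and not a site in use. No match overlapped a match of another motif in the members. The 80 bases before the start are shown for the members with a whole TGACNNNGC or CACGTG match there, whatever their log2 ratio. Capitals mark the matches of TGACNNNGC and CACGTG. *Psme3* also holds a CCAAT match there, which begins at position -14 and was left in lower case. *Psmb5* lies at chr14:54617996-54618075 on the minus strand, *Psmb6* at chr11:70525277-70525356, *Psmd9* at chr5:123228110-123228189 and *Psme3* at chr11:101316133-101316212 on the plus strand.
Psmb5: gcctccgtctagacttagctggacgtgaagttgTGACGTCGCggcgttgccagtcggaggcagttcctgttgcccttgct
Psmb6: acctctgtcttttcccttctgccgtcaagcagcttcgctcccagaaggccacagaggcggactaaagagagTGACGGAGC
Psmd9: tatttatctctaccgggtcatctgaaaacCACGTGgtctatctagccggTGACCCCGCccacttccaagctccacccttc
Psme3: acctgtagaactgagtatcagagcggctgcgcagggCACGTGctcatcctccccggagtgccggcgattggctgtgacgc

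Of the 6 members with a TGACNNNGC match 5 lay above 0 at the probe set used, beside 36 of all 44 members above the filter (81.8%). *Psmd9*, which also holds CACGTG, had a log2 ratio of 0.33, *Psmc6* 0.19, *Psmb5* 0.17, *Psmb6* 0.05 and *Psmd12* 0.03, while *Psme4*, with a match across its start, had -0.48 at the probe set used and 0.04 and -0.04 at its other strong ones. Of the members with CACGTG, *Psme3* had 0.41, *Psmd9* 0.33, *Psma4* 0.10 and *Psme3ip1* -0.17. The matches thus occurred in members with high ratios, in members with ratios near 0 and in members below 0.

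Among other genes of the pathway, *Pomp*, the chaperone that matures the 20S core and is not covered by the symbol rule, had signals of 1023 and 1235 (log2 ratio 0.27), within the range of the subunits, and *Sem1*, a small 19S subunit, had 1970 and 1996 (0.02). Of 15 ubiquitin enzymes and shuttles that bind the proteasome, 10 lay above 0 as deposited and 6 under median scaling, the median was 0.08, and none was called at 1.5-fold. The highest was *Usp14*, which trims ubiquitin chains on the 19S cap, with 996 and 1286 (0.37), and its 3 other probe sets gave 0.27 to 0.39. *Uchl5*, another such enzyme of the cap, had 722 and 855 (0.25), and *Ube3c*, which extends chains on the proteasome, had 124 and 154 (0.31). The lowest was the shuttle *Ubqln2*, with 552 and 411 (-0.42). *Vcp*, the ATPase that extracts proteins for degradation, had 2141 and 1936 (-0.15), and its cofactors *Nploc4* and *Ufd1* had -0.26 and 0.02. *Vcp*, *Nploc4* and *Ufd1* thus had values on both sides of 0. Of the ubiquitin genes and activating enzymes listed, *Uba6* was the gene with a value here, at 233 and 227 (-0.04).

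The immunoproteasome subunits, which replace the catalytic ones after interferon, lay lower than their constitutive counterparts in 2 of 3 pairs. *Psmb9* had signals of 220 and 201 (log2 ratio -0.13) beside 0.05 for *Psmb6*, *Psmb10* had 408 and 395 (-0.04) beside 0.29 for *Psmb7*, and *Psmb8* had 430 and 492 (0.19) beside 0.17 for *Psmb5*. The activator subunit *Psme1* had 1054 and 1024 (-0.04). The CCT chaperonin, another abundant ring complex of the cytosol, had a median log2 ratio of 0.14 over 8 subunits with 6 above 0, and 5 under median scaling, from *Cct4* with 3099 and 2983 (-0.05) to *Cct3* with 2227 and 2673 (0.26), so that a small upward difference was not seen in the proteasome alone. S phase genes, which serve DNA replication, had a larger one. All 13 lay above 0, also under median scaling, with a median of 0.70, from *Pcna* with 2749 and 3512 (0.35) to *Tk1* with 337 and 733 (1.12). Of these 9 were called higher at 1.5-fold, and their part in the proteasome values was not tested.

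**Figure D4:**
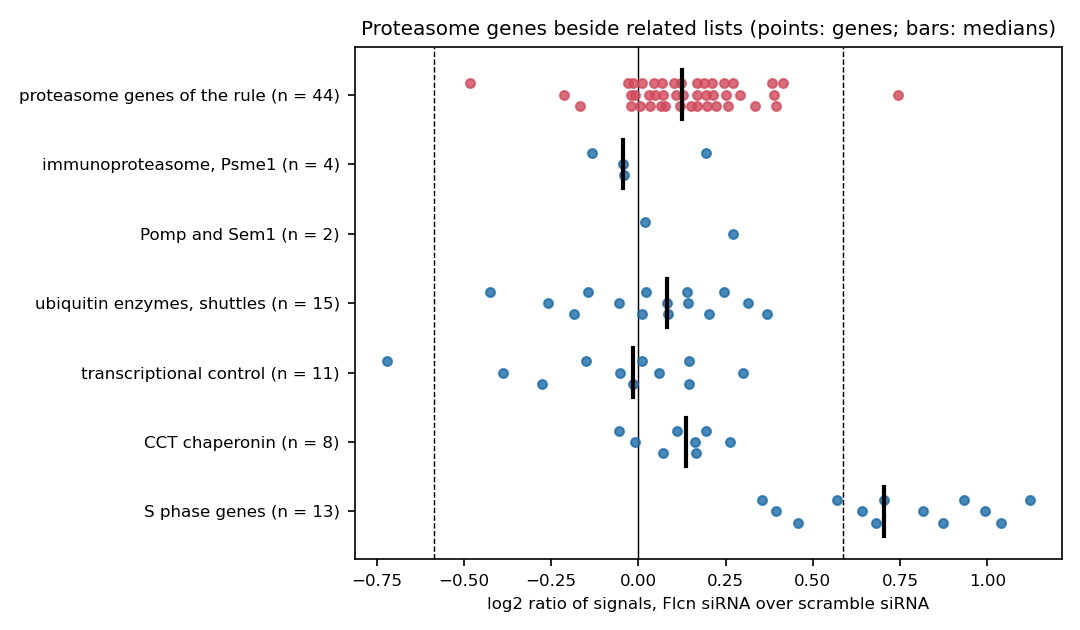
Log2 ratio of signals, *Flcn* siRNA over scramble siRNA, for the 44 proteasome genes (red) and for genes of related lists (blue), with the number of genes above the filter; black bars are medians, drawn for lists of 4 or more genes, and 1.5-fold is dashed. The proteasome and CCT bars lie at 0.12 and 0.14, the immunoproteasome bar at -0.04 and the S phase bar at 0.70, and the leftmost point is *Nfe2l1*.

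The size of the proteasome median depended on the scaling and on the probe sets, and its distance from the median of all genes depended on the probe sets too. Median scaling shifts every gene alike and so cannot change that distance. It was 0.10 as reported, 0.12 with quantile normalization and 0.05 with the mean of all probe sets, which gives weak probe sets the same weight as strong ones. With only the strongly detected probe sets averaged it was 0.11.

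**Figure D5:**
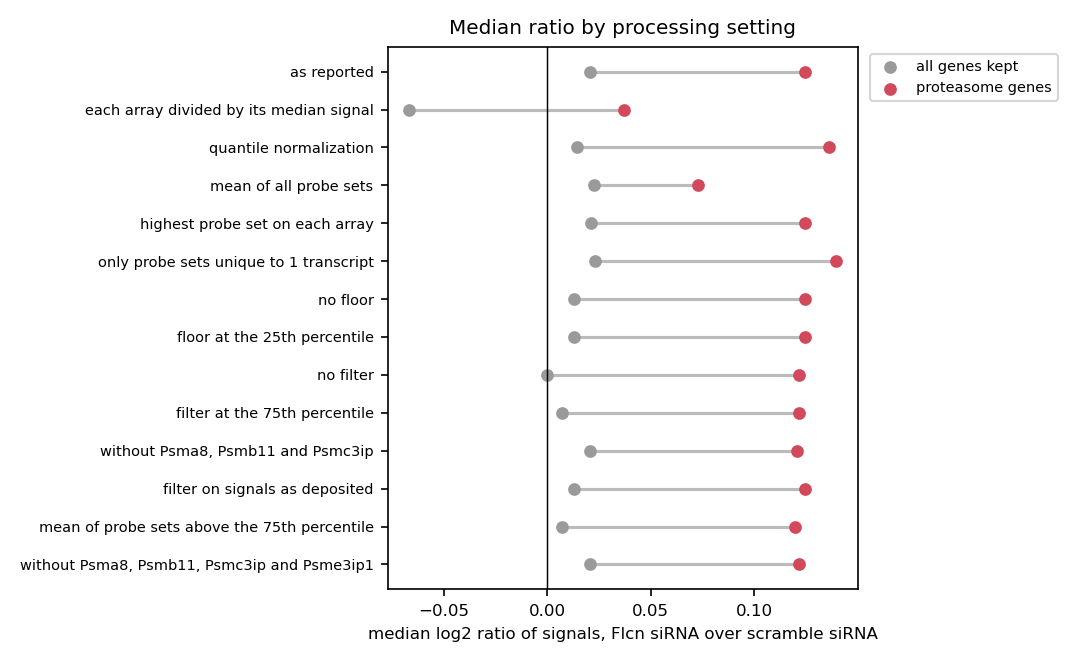
Median log2 ratio of signals, *Flcn* siRNA over scramble siRNA, of the proteasome genes (red) and of all genes kept (grey) under each processing setting. The red point lies to the right of the grey one in every setting drawn, by 0.05 when all probe sets were averaged and by 0.10 to 0.12 in the others.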

How the data were processed

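RNA of RAW264.7 cells with scramble siRNA or *Flcn* siRNA was hybridised to 1 Affymetrix Mouse Genome 430 2.0 array each. GCOS was the authors' software, and what they deposited is a signal intensity on a linear scale, 1 for each probe set on each array. Its settings are not stated in the text read here, and trimmed means (2% of values cut from either side) of 100.0 on both arrays show that they were scaled alike. Of 45101 probe sets, 64 are controls. The platform annotation lists several genes for 932 and does not list 9211, controls included, and 34945 probe sets that are not controls have 1 gene. Symbols were updated by Entrez ID for 34741 of the latter through the RefSeq table of GRCm38.p6, except for the members, which keep the platform's symbol. Signals below an array's median were raised to it, the probe set with the largest geometric mean stood for its gene, and genes passed at a geometric mean above 13.2. No p-value was computed, since each condition has 1 array. Members and lists were chosen with earlier results of these data known. Named are members past 1.5-fold, the 2 highest and 2 lowest and the highest signal of each role, catalytic subunits, regulators and members under the filter, and, of other lists, genes past 1.5-fold and the highest and lowest; further genes were named after their values were seen. The processing functions were tested on simulated data. Alternatives were other scalings, probe set rules, floors, filters and a smaller fold threshold. Python 3.11.15, numpy 2.4.6, pandas 2.3.3 and matplotlib 3.10.9 were used.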

Additional observations from a re-analysis of the deposited data

How the results depend on the processing

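Limits for a shift were the standard error over genes for a median and the 95% Wilson interval for a share. For a count the limit was 1.5 times, and for a single gene 0.19 (the typical SD among probe sets of a gene). Genes and probe sets read on the same arrays are no replicates, so these limits are no error of the difference between conditions. The values below went past them. Under median scaling, the median log2 ratio was 0.037 over the members, of which 59.1% lay above 0, 0.023 for 20S alpha, 0.061 for 19S ATPases, 0.063 for 19S non-ATPases and 0.11 for chaperones. With the mean of all probe sets it was 0.073 over the members, 0.095 for 19S ATPases, 0.048 for 19S non-ATPases and 0.0037 for chaperones, and 383 of all genes were lower. With only probe sets unique to 1 transcript it was 0.17 for 20S alpha and 0.11 for chaperones, and 2 members were higher by 1.5-fold, *Psmc3ip* and *Psma3*, the latter from signals of 25.5 and 40.0. No member was higher with the filter at the 75th percentile, where 105 of all genes were higher and 165 lower, none with the mean of probe sets above that percentile, where 101 were higher and 164 lower, and none without *Psma8*, *Psmb11* and *Psmc3ip* or without these and *Psme3ip1*. At a log2 ratio of 0.32 or more in size, 6 members were higher and 1 lower, and of all genes 1897 and 1659. The filter on signals as deposited, the mean of strong probe sets and the list without *Psme3ip1* were chosen after seeing the data. Of 472 values of single members under alternatives, 460 moved by less than the limit and 12 moved further. Part of the 460 could not move past it. Other floors, other filters and the highest probe set on each array left the values of kept members unchanged, and median scaling shifted each by -0.087. The member called at 1.5-fold as reported, *Psmc3ip*, did not change sign. Members not called did, such as *Psmd9*, from 0.33 to -0.06 with the mean of all probe sets. Under median scaling 10 members above 0 as deposited no longer lay above it. The largest differences were those of *Psmc6*, with -0.57, *Psma3*, with 0.65, and *Psme4*, with 0.04, when only probe sets unique to 1 transcript were used. In that setting another probe set stood for each of these genes. Its signals were 39.0 and 26.2 for *Psmc6*, 25.5 and 40.0 for *Psma3*, and 446 and 458 for *Psme4*. Why probe sets of 1 gene differ was not tested. No paired analysis was possible because each condition has 1 array, and for the same reason no array could be left out.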
